A study of Mus musculus with 7 samples.

Results

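The genes described here encode the kinesin motors (Kif symbols) and the centromere proteins (Cenp symbols). They were taken from the array annotation by symbol, with the brightest probe set standing for a gene that has several, which gave 61 genes of 19938 measured: 40 Kif and 21 Cenp genes. By their known roles they were set in classes of 12 mitotic kinesins, 15 transport kinesins, 12 other kinesins and 19 centromere proteins. Cenpj and Cenpv, whose products act at centrioles and on microtubules, and the pseudogene Kif4-ps were kept apart. One probe set that carries the symbols of both Kifc1 and Kifc5b was left out.

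RNA was measured in sorted pancreatic cells of 7 mice at postnatal day 25, 3 weaned prematurely at day 18 and 4 still suckling, with 1 array per mouse. All mice, on the ICR background, carried an insulin-Cre transgene and a Rosa26-LSL-YFP reporter, so that Cre made under an insulin promoter switched on a yellow fluorescent protein. Between 2000 and 6000 YFP+ cells were collected from each animal, and whether Cre reached other cells was not analysed here. A code in the sample descriptions also differs between the groups, so whatever it marks and weaning cannot be told apart. The question is how expression in these cells, at 1 age, differs after early weaning.

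Kinesins are ATP-driven motors that move along microtubules. Transport kinesins carry vesicles and organelles through the cell, and in beta cells kinesin-1 moves insulin granules. Mitotic kinesins build the spindle, move chromosomes and complete cytokinesis. Centromere proteins mark the centromere with the histone variant CENP-A and assemble on it the inner kinetochore, which holds chromosomes to the spindle. Transcripts of many mitotic genes accumulate in late cell cycle phases and are low in resting cells, while transport motors are used by resting cells too.

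The cell-cycle homology region, a promoter element through which the DREAM complex silences late cell cycle genes in resting cells, separated the kinesin classes by sequence. It was searched as TTTGAA on both strands, from 250 bases before to 50 bases after the start in RefSeq's GRCm38.p6 promoter windows, which held 52 of the 61 genes. It occurred in 9 of 11 mitotic kinesins, or 81.8%, and in 0 of 10 transport kinesins, beside 18.1% of all 27025 genes with a window. Of the 19 centromere proteins 5 held it, or 26.3%, and of the 10 other kinesins 2. CCAAT, the box bound by NF-Y, occurred in 7 of 11 mitotic kinesins, 14 of 19 centromere proteins (73.7%) and 3 of 10 transport kinesins, beside 37.9% of all genes. An E2F site, searched as TTTCCCGC, TTTGGCGC, TTTGCCGC or TTTCGCGC, occurred in 2 mitotic kinesins, 4 centromere proteins and 0 transport kinesins, beside 2.32% of all genes. These are letter matches and not shown to be bound sites.

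**Figure D1:**
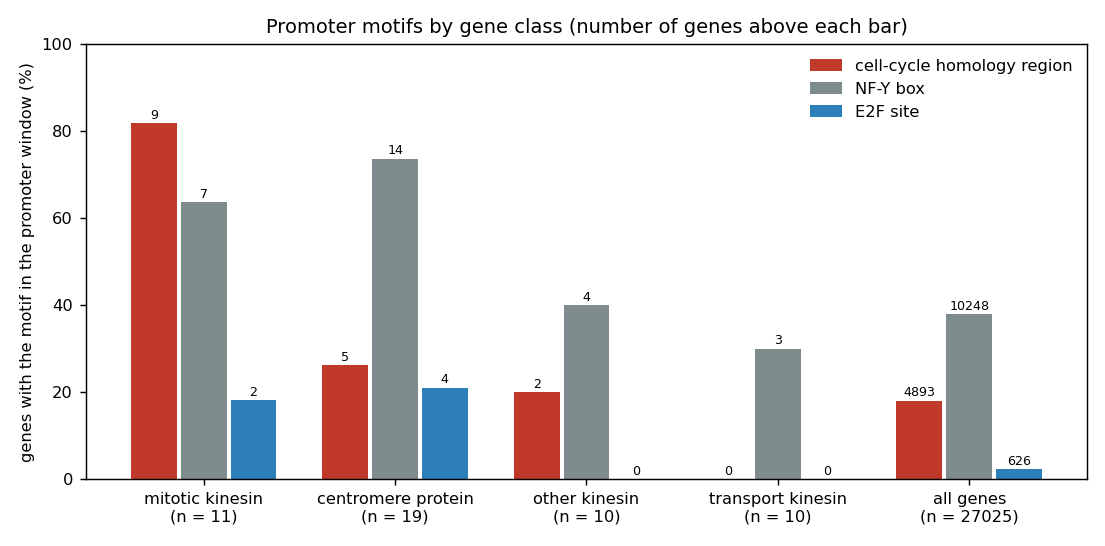
Share of genes (%) with each motif in the promoter window, by class, with the number of genes above each bar and the number with a window below each class. The bar for the cell-cycle homology region reaches 81.8% in mitotic kinesins and stands at 0 in transport kinesins.

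The 100 bases before the start are shown for 3 mitotic kinesins that hold the element there, for 2 transport kinesins, and for the 4 centromere genes that were higher in weaned mice at an unadjusted p under 0.05. Capitals mark the motifs named above on either strand, and each sequence reads 5′ to 3′ on the strand of its gene.
Kif11 (chr19:37376282-37376381, plus strand): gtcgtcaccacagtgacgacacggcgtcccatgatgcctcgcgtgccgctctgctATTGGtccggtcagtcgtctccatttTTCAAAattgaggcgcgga
Kif15 (chr9:122950981-122951080, plus strand): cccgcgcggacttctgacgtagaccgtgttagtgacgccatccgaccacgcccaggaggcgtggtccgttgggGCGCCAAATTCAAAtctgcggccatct
Kif22 (chr7:127042421-127042520, minus strand): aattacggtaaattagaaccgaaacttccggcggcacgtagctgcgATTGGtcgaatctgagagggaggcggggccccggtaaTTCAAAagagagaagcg
Kif1a (chr1:93101875-93101974, minus strand): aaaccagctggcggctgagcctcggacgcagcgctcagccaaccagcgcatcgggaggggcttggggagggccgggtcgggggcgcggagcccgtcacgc
Kif3a (chr11:53567269-53567368, plus strand): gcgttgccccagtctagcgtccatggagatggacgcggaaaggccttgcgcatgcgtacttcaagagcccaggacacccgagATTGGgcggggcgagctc
Cenpw (chr10:30200541-30200640, minus strand): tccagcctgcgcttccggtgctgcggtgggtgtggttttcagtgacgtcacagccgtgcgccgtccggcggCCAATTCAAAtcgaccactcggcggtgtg
Cenpk (chr13:104228511-104228610, plus strand): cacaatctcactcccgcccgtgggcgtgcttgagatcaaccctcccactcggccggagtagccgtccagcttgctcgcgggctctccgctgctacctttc
Cenph (chr13:100775900-100775999, minus strand): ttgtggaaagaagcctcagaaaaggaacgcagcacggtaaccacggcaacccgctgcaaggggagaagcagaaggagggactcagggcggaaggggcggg
Cenps (chr4:149137601-149137700, minus strand): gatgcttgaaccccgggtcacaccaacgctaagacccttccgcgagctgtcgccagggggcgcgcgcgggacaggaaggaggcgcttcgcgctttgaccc
In Kif11, Kif15 and Kif22 the element begins 19, 19 and 17 bases before the start, and in Kif15 an E2F site touches it. In Cenpw a CCAAT box and the element overlap, beginning 29 and 25 bases before the start. The printed stretches of Cenpk, Cenph and Cenps hold none of the motifs, although Cenpk and Cenph have a CCAAT box and Cenps an E2F site elsewhere in the window.

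Signal is given as log2 of the authors' deposited intensity, and differences are weaned minus suckling. It is not compared between probe sets, other than with a background level. As a background level served the 95th percentile of the mean signal of 1027 olfactory receptor genes, 3.27 log2 units, and 5 of the 61 genes (Kif2b, Kif18a, Kif27, Cenpi and Kif4-ps) had both group means at or below it. All 9 markers of beta cells, the labelled cell type, stood above it on every array, and so did 5 of 6 markers of other endocrine cells. All 4 ductal markers did too, while 5 of 7 leukocyte and 4 of 6 endothelial markers were at background. The mean of 13 acinar markers was 3.64 to 5.84 in weaned and 3.98 to 7.56 in suckling mice, highest in suckling mice 2 and 9. All 13 were lower in the weaned mean, with a median difference of -1.53, 1 of them at an unadjusted p under 0.05. Only Ptf1a, an acinar regulator, was at background in both groups. Rbpjl, another, had means of 3.14 in weaned and 3.42 in suckling mice. In such bulk samples fewer cells of a type and less RNA per cell cannot be told apart.

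By limma with Benjamini-Hochberg adjustment over all genes, 0 of the 61 passed an adjusted p of 0.05, where 3 of all genes did (0.0150%). The lowest adjusted p among them was 0.332. At an unadjusted p under 0.05 there were 8, or 13.1%, where all genes gave 7.58%. Of these 7 were higher in weaned mice, where 4.39% of all genes were, and 1 was lower, where 3.19% were. The groups of mice did not overlap in 6, all with weaned above suckling, where 7.32% of all genes did not overlap and 3.90% had weaned above. Without suckling mouse 9 the 8 became 5, where 5.87% of all genes had an unadjusted p under 0.05. With the acinar marker mean as a covariate the 8 became 4, where 5.83% of all genes did.

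**Figure D2:**
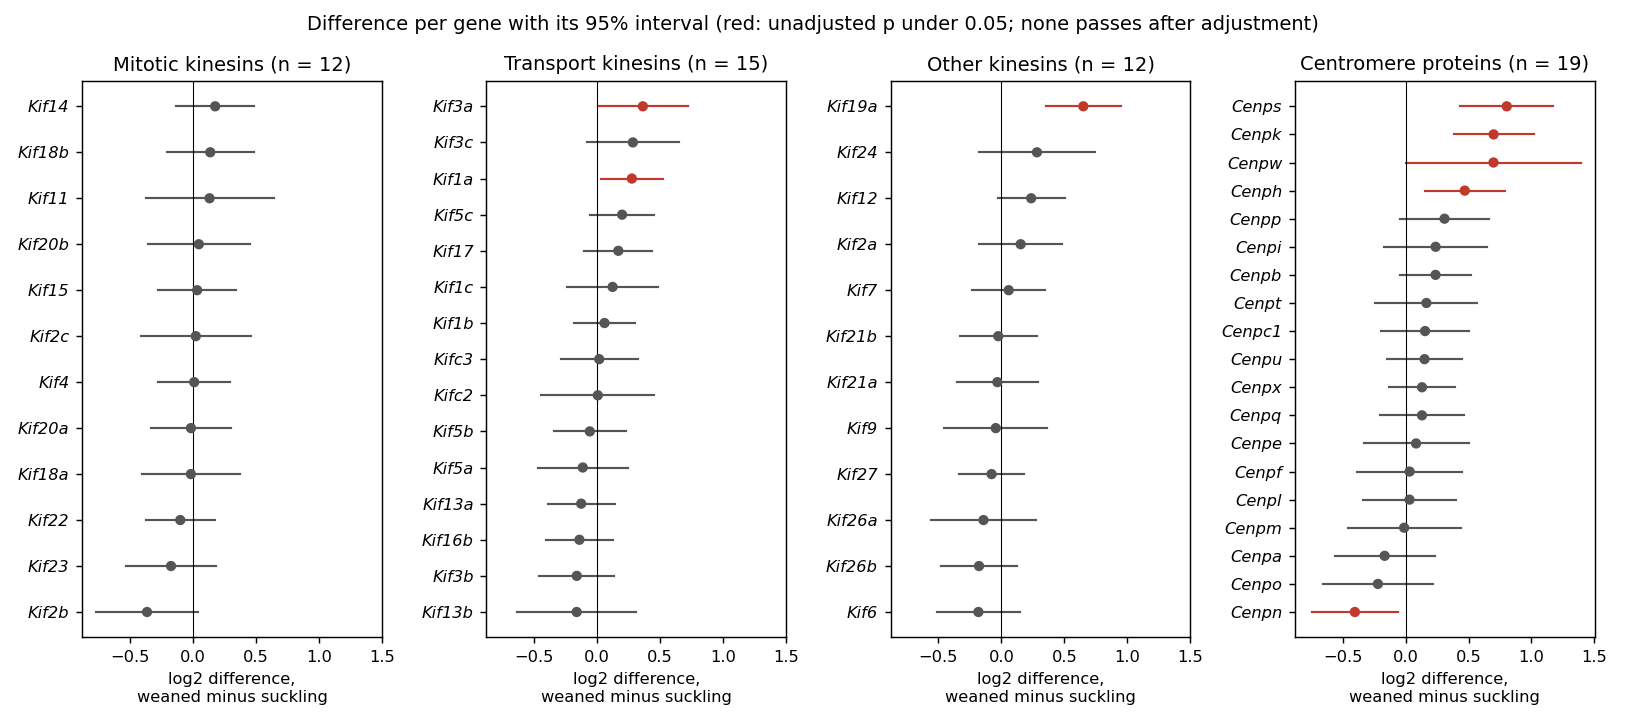
Log2 difference (weaned minus suckling) of each gene with its 95% interval from limma, by class. Red marks an unadjusted p under 0.05, which 0 of 12 mitotic kinesins, 2 of 15 transport kinesins, 1 of 12 other kinesins and 5 of 19 centromere proteins reached.

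Of 12 mitotic kinesins 7 had the weaned mean above the suckling mean and 5 had it below. The median difference was 0.015 and the mean -0.010, beside a median of 0.00047 over all genes. In 0 of 12 was the unadjusted p under 0.05 by limma, beside 7.58% of all genes, and in 0 did the groups separate. Their 95% intervals reached from -0.77, for Kif2b, to 0.64, for Kif11, so differences of that size lie within what 7 arrays leave unresolved. Only in 5 of 12 did every array lie above the background level, and near it array signal tracks RNA poorly. With 1 mouse left out the median ran from -0.073, without weaned mouse 12, to 0.090, without weaned mouse 5. It was 0.137 with the acinar covariate.

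Kif11, the motor that pushes the spindle poles apart, read 3.99, 4.00 and 4.46 in weaned mice 4, 5 and 12, and 3.64, 4.50, 3.69 and 4.23 in suckling mice 2, 9, 11 and 12. The suckling mice spanned the whole range of the weaned ones (difference 0.13, SE 0.23, limma adjusted p = 0.925), and without weaned mouse 12 the difference was -0.02. Kif20a, which brings the chromosomal passenger complex to the central spindle, read 4.75, 4.49 and 4.43 in weaned and 4.36, 4.66, 4.79 and 4.48 in suckling mice. Both groups lay within the same band, and the difference of -0.02 (SE 0.14) had a 95% interval of -0.33 to 0.30. It turned positive, at 0.018, when arrays were centred on their medians, which moved the median of all genes to 0.035.

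Kif23, the motor of the centralspindlin complex in cytokinesis, was lowest in weaned mouse 5, with 4.02, 3.54 and 4.13 in weaned and 3.86, 4.19, 4.08 and 4.16 in suckling mice. Its difference of -0.17 (SE 0.16) moved to 0.00297 without that mouse. Kif22, a chromokinesin that binds chromosome arms, read 3.96, 4.04 and 3.96 in weaned and 4.01, 4.07, 4.33 and 3.94 in suckling mice (-0.10, SE 0.12). Kif2c, a microtubule depolymerase of the centromere, stood highest in weaned mouse 12, at 3.98 against 3.29 and 3.23 in the other weaned mice and 3.31 to 3.75 in suckling mice. Without weaned mouse 12 its difference went from 0.02 (SE 0.19) to -0.22. The list mean of the mitotic kinesins was likewise highest on weaned array 12, at 3.78, and lowest on weaned array 5, at 3.46, with suckling arrays at 3.502 to 3.74.

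Kif15, a spindle motor that acts beside Kif11, read 3.29 to 3.45 in weaned and 3.10 to 3.63 in suckling mice (0.03, SE 0.14). Kif4, a chromokinesin of the central spindle, differed by 0.01 (SE 0.13) and Kif20b, a motor of cytokinesis, by 0.05 (SE 0.18). Kif18b, which trims astral microtubules, was highest in weaned mouse 12, at 4.35, and lay between 3.71 and 3.98 on the other arrays (0.14, SE 0.15). Kif14, a cytokinesis motor, differed by 0.18 (SE 0.14), and its second probe set by -0.08 at a signal near 1.4. The suckling mean of its brighter probe set, 3.19, lies below the background level. Kif18a, which damps chromosome movement, and Kif2b, a depolymerase best known from testis, were at background. The lower weaned mean of Kif2b (-0.37, SE 0.18) came with 3.33 in suckling mouse 2 and 2.47 to 2.83 on the other arrays.

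In 2 of 15 transport kinesins, or 13.3%, the unadjusted p was under 0.05, beside 7.58% of all genes. That count was 0 without suckling mouse 9 or with the acinar covariate, and 1 without weaned mouse 4 or 12 or suckling mouse 2 or 11. Over all genes 5.87% reached that p without suckling mouse 9 and 5.83% with the acinar covariate. In 14 of 15 every array lay above the background level, and in 5 of 12 mitotic kinesins. As these are different probe sets, the counts do not compare RNA amounts between the classes. Of the 15, 9 had the weaned mean above and 6 below the suckling mean, with a median difference of 0.015. That median was -0.0088 without weaned mouse 4, -0.019 without suckling mouse 2 and -0.052 without suckling mice 2 and 9. The difference between the classes was not tested.

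Kif5b, the heavy chain of kinesin-1 that moves insulin granules, read 8.94, 8.56 and 8.65 in weaned and 8.64, 8.80, 8.77 and 8.89 in suckling mice. The groups overlapped throughout, and the difference of -0.06 (SE 0.13) had a 95% interval of -0.34 to 0.23. Kif1b, a kinesin-3 motor of mitochondria and synaptic vesicle precursors, differed by 0.06 (SE 0.11, interval -0.18 to 0.30), with 7.80 to 8.06 in weaned and 7.79 to 7.90 in suckling mice.

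Kif1a, the kinesin-3 motor that carries dense core and synaptic vesicle precursors, read 7.83, 7.89 and 7.72 in weaned and 7.51, 7.44, 7.53 and 7.66 in suckling mice. Each weaned mouse lay above each suckling mouse. The difference was 0.27 (SE 0.11), a 1.21-fold higher signal, at an unadjusted p of 0.0308 and a limma adjusted p of 0.634. It kept an unadjusted p under 0.05 in 3 of the 7 fits that leave out 1 mouse.

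Kif3a and Kif3b form the heterodimeric kinesin-2 motor of cilia. Kif3a read 6.13, 5.57 and 5.93 in weaned and 5.53, 5.31, 5.46 and 5.75 in suckling mice, so that weaned mouse 5 lay among the suckling mice (0.36, SE 0.16, unadjusted p = 0.0487, limma adjusted p = 0.653). Kif3b, its partner, had the lower mean in weaned mice (-0.16, SE 0.13), with 6.004 to 6.37 against 6.17 to 6.49. The 2 subunits of 1 motor thus had means on opposite sides of 0, neither past the adjusted threshold. Kif3c, a further kinesin-2 subunit of neurons, differed by 0.28 (SE 0.16).

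The remaining transport motors each had overlapping groups. Kif5c and Kif5a, the neuronal heavy chains of kinesin-1, differed by 0.20 (SE 0.11) and -0.11 (SE 0.16). Kif13a and Kif13b, kinesin-3 motors of endosomes and membrane receptors, differed by -0.13 (SE 0.12) and -0.16 (SE 0.21), and Kif16b, a motor of early endosomes, by -0.14 (SE 0.12). Kif13b ran from 5.18 in weaned mouse 12 to 6.12 in weaned mouse 4, so that the weaned mice alone spanned the suckling range of 5.58 to 6.04. Kif1c, a kinesin-3 motor, had 2 probe sets with differences of 0.12 and 0.15. The ciliary motor Kif17 and the minus-end motors Kifc2 and Kifc3 differed by 0.17 (SE 0.12), 0.0046 (SE 0.20) and 0.02 (SE 0.14).

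Among the other kinesins Kif19a, which shortens cilia by depolymerising microtubules at their tips, had the smallest p of all 40 Kif genes. It read 5.90, 5.996 and 5.58 in weaned mice and 5.16, 5.05, 5.32 and 5.17 in suckling mice. Every weaned mouse lay above every suckling mouse. The signal was 1.57-fold higher in weaned mice, with a difference of 0.65 (SE 0.13, 95% interval 0.35 to 0.95, limma adjusted p = 0.337). The unadjusted p stayed under 0.05 in each of the 7 fits without 1 mouse, where the difference ran from 0.57 to 0.77. It was 0.53 with the acinar covariate and 0.58 without suckling mice 2 and 9. In RefSeq's GRCm38.p6 gene table the end of Kif19a overlaps that of Btbd17, which differed by 0.39 (SE 0.19), and where the probes lie was not analysed here.

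Kif12, a kinesin reported to protect beta cells from oxidative stress, read 6.59, 6.53 and 6.61 in weaned and 6.14, 6.43, 6.49 and 6.31 in suckling mice. The groups did not overlap, but the unadjusted p was 0.0743 (0.24, SE 0.12). Kif21a, a motor that restrains microtubule growth, and Kif2a, a depolymerase of spindle poles and neurites, differed by -0.03 (SE 0.14) and 0.15 (SE 0.15). With arrays centred on their medians Kif21a differed by 0.0025, where the median of all genes was 0.035. Kif7, a regulator of Hedgehog signalling at the tip of the cilium, read 4.07 to 4.18 in weaned and 3.89 to 4.25 in suckling mice (0.06, SE 0.13), and its dimmer probe set differed by 0.28. Kif24, which holds back cilium growth, read 3.95 and 3.97 in weaned mice 4 and 12 but 3.09 in weaned mouse 5, against 3.28 to 3.47 in suckling mice (0.28, SE 0.21). Kif26b, a motor-like protein of kidney development, had probe sets with means on opposite sides, -0.18 and 0.24. Kif26a, Kif21b, Kif6, Kif9 and Kif27 had differences from -0.18 to -0.03 and overlapping groups. The class as a whole had 5 of 12 weaned means above the suckling mean and a median of -0.029, beside 0.00047 over all genes. With arrays centred on their medians it was 0.0059, beside 0.035 over all genes.

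**Figure D3:**
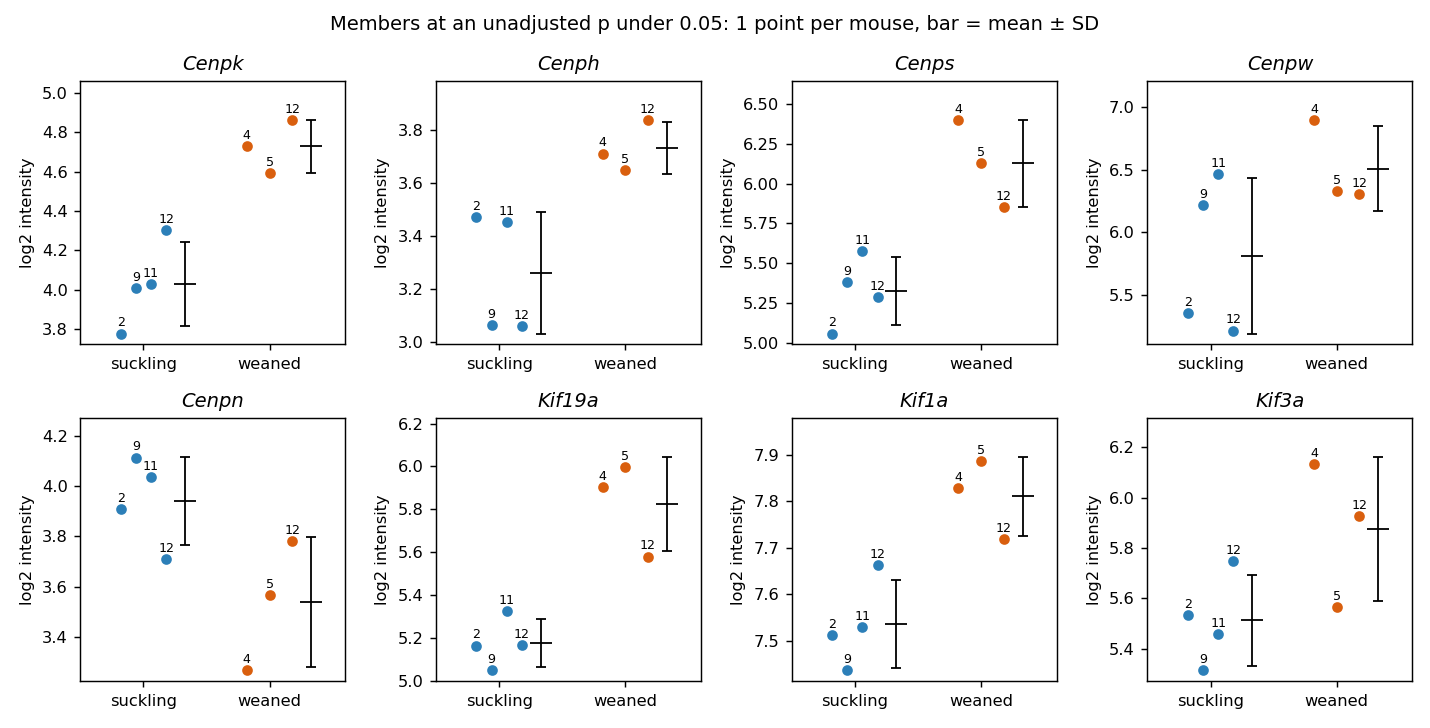
Log2 intensity of the 8 genes with an unadjusted p under 0.05, 1 point per mouse with its number, and the mean ± SD of each group as a bar beside the points. In Cenpk, Cenph, Cenps, Kif19a and Kif1a every weaned mouse lies above every suckling mouse, while the groups of Cenpw, Cenpn and Kif3a overlap.

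The centromere proteins were the class with the most members at an unadjusted p under 0.05, 5 of 19 or 26.3% beside 7.58% of all genes. The weaned mean was above in 4 and below in 1, beside 4.39% and 3.19% of all genes. With the acinar covariate the count was 3, where 5.83% of all genes reached that p. Their median difference was 0.15 and 15 of 19 had the higher mean in weaned mice, beside 0.00047 and 50.1% over all genes. With 1 mouse left out the count of higher means ran from 12, without weaned mouse 12, to 17, without weaned mouse 5. It was 13 with the acinar covariate or without suckling mice 2 and 9. The median stayed between 0.094 and 0.212 with 1 mouse left out. It was 0.167 after quantile normalization and 0.185 with arrays centred on their medians, beside 0.0067 and 0.035 over all genes. None passed the adjusted threshold.

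These 5 genes all encode subunits of the inner kinetochore, the constitutive centromere-associated network, whose subcomplexes are listed here after the values were seen. The 4 subcomplexes listed hold 14 of the 19 centromere proteins, so most of the class belongs to them. Cenpk and Cenph encode partners in the CENP-H/I/K/M complex, which links the centromere to the outer kinetochore. Cenpk read 4.73, 4.59 and 4.86 in weaned and 3.78, 4.01, 4.03 and 4.30 in suckling mice. The groups were apart, and the signal was 1.62-fold higher in weaned mice (0.70, SE 0.14, interval 0.38 to 1.02, limma adjusted p = 0.332). Cenph read 3.71, 3.65 and 3.84 in weaned and 3.47, 3.06, 3.45 and 3.06 in suckling mice.

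The suckling mean of Cenph, 3.26, lies at the background level, where array signal tracks RNA poorly. The groups were apart, and the signal was 1.39-fold higher in weaned mice (0.47, SE 0.14, limma adjusted p = 0.544). The other subunits of this complex had overlapping groups. Cenpi, at background in both groups, had a suckling range of 2.87 to 3.13 and weaned values of 3.68, 2.85 and 3.15. Cenpm differed by -0.01 (SE 0.20), with weaned mouse 12 at 5.25 above, and weaned mice 4 and 5 at 4.38 and 4.43 below, the suckling range of 4.63 to 4.77. The mean of the 4 genes per array was 4.12, 3.88 and 4.27 in weaned and 3.70 to 3.78 in suckling mice.

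Cenps and Cenpw encode histone-fold subunits of the CENP-T/W/S/X complex, which wraps centromeric DNA. Cenps read 6.40, 6.13 and 5.85 in weaned and 5.06, 5.38, 5.57 and 5.29 in suckling mice. The groups were apart, with a 1.75-fold higher signal in weaned mice (0.80, SE 0.16, interval 0.43 to 1.17, limma adjusted p = 0.343). Cenpw read 6.90, 6.33 and 6.31 in weaned and 5.35, 6.22, 6.47 and 5.22 in suckling mice, so that suckling mouse 11 lay above 2 of the weaned mice. Its 1.62-fold difference (0.70, SE 0.31, limma adjusted p = 0.653) kept an unadjusted p under 0.05 only without suckling mouse 9 or 11 among the fits without 1 mouse.

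The partners Cenpt and Cenpx differed by 0.17 (SE 0.18) and 0.13 (SE 0.12), with overlapping groups. All 4 subunits of this complex had the weaned mean above the suckling mean, with a median of 0.43, and so they did in each of the 15 alternative fits. Their mean per array was 5.84 to 6.05 in weaned and 5.19 to 5.78 in suckling mice.

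The 4 listed subunits of the CENP-O/P/Q/U complex, which binds microtubules and the kinase Plk1, had a median difference of 0.14, and 0 of them an unadjusted p under 0.05. That median became 0.055 when weaned mouse 4 was left out and 0.059 with the acinar covariate, and 1 gene reached that p without weaned mouse 12 or suckling mouse 11. Cenpp read 3.99, 3.78 and 3.53 in weaned and 3.32, 3.29, 3.78 and 3.45 in suckling mice (0.31, SE 0.16), with suckling mouse 11 among the weaned mice. Cenpq and Cenpu differed by 0.13 (SE 0.15) and 0.15 (SE 0.13). Cenpo differed by -0.22 (SE 0.20), with weaned mouse 5 at 4.04 and the other 6 arrays at 4.59 to 4.99. Itgb3bp, which encodes a further subunit, CENP-R, lies outside the symbol rule and differed by 0.11 (SE 0.12).

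Cenpn, a reader of the CENP-A nucleosome in the CENP-L/N complex, was the exception. It read 3.27, 3.57 and 3.78 in weaned and 3.91, 4.11, 4.03 and 3.71 in suckling mice, with weaned mouse 12 above the lowest suckling mouse. The signal was 1.32-fold higher in suckling mice (-0.40, SE 0.15, unadjusted p = 0.0259, limma adjusted p = 0.624), and the unadjusted p stayed under 0.05 in 3 of the 7 fits without 1 mouse. Its partner Cenpl differed by 0.03 (SE 0.16). In RefSeq's gene table Cenpk and Cenpn overlap Ppwd1 and Cmc2, which differed by -0.04 (SE 0.18) and 0.19 (SE 0.15).

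Proteins of the centromere outside those complexes gave no separation. Cenpa, the histone H3 variant that defines the centromere, read 5.23, 5.06 and 5.25 in weaned and 5.07, 5.04, 5.64 and 5.62 in suckling mice (-0.17, SE 0.18). Suckling mice 11 and 12 lay above the weaned mice, and mice 2 and 9 near the lowest of them. Without mice 2 and 9 the difference was -0.45 at an unadjusted p of 0.0104, though a limma adjusted p of 0.902, and with the acinar covariate it was -0.36. Cenpb, which binds a satellite DNA box, read 7.49, 7.61 and 7.88 in weaned and 7.31 to 7.54 in suckling mice (0.24, SE 0.13). Cenpc1, the scaffold that ties the inner kinetochore to CENP-A, differed by 0.15 (SE 0.15). Cenpe, a kinesin of the outer kinetochore, differed by 0.08 (SE 0.19) and by -0.18 without suckling mice 2 and 9, and Cenpf, of the kinetochore corona, by 0.03 (SE 0.19). The Cenp genes kept apart from this class, Cenpj of centriole growth and Cenpv of microtubule bundling, differed by -0.03 (SE 0.22) and -0.04 (SE 0.14).

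Acinar signal was highest in suckling mice 2 and 9. Without both mice the differences of Cenpk, Cenph, Cenps and Cenpw were 0.56, 0.48, 0.70 and 0.67, and with the acinar covariate 0.65, 0.49, 0.64 and 0.56. Of these Cenpk, Cenph and Cenps kept an unadjusted p under 0.05 in both fits and Cenpw in neither. The differences of Cenpn, Kif1a and Kif3a were -0.33, 0.21 and 0.27 without both mice. With the acinar covariate they were -0.31, 0.21 and 0.33. None of these had an unadjusted p under 0.05 in either fit.

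**Figure D4:**
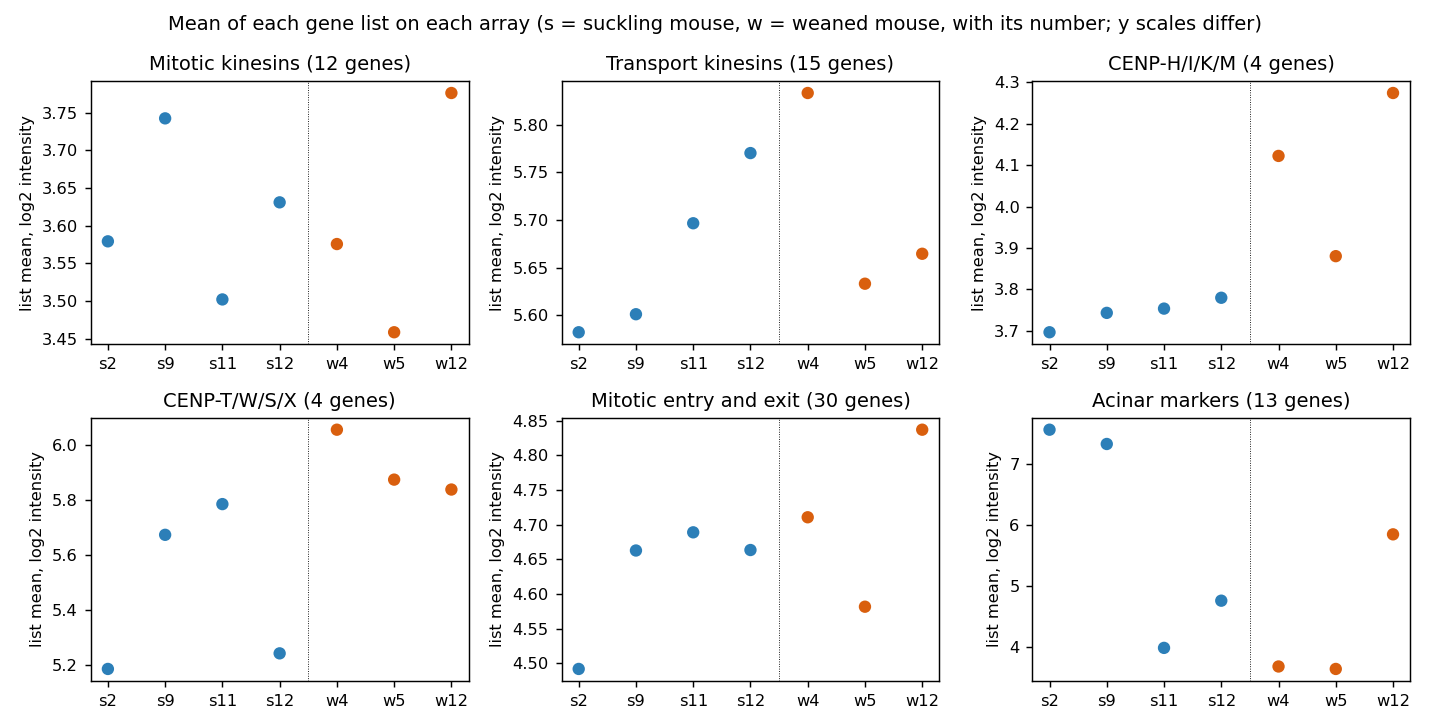
Mean log2 intensity of 6 gene lists on each array, with suckling mice left of the dotted line and weaned mice right of it. The means of CENP-H/I/K/M and CENP-T/W/S/X are higher on each weaned array than on each suckling array. Both subcomplexes were listed after the values were seen and hold the 4 centromere genes that were higher at an unadjusted p under 0.05. The means of CENP-O/P/Q/U and CENP-L/N, not drawn, overlap between the groups. The mitotic kinesin means overlap too, and the acinar markers are highest in suckling mice 2 and 9.

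The genes that work with these motors and proteins were taken from lists. Of 20 measured kinetochore partners 13 had the weaned mean above the suckling mean, and the median difference was 0.11. An unadjusted p under 0.05 was reached by 3, or 15.0% beside 7.58% of all genes, all higher, and an adjusted one by 0. That count was 2 without suckling mouse 11 and 5 without weaned mouse 4 or suckling mouse 9. It was 6 with the acinar covariate, where 5.83% of all genes reached that p. The median was 0.054 without weaned mouse 12 and 0.065 without suckling mouse 2. Pmf1, a subunit of the MIS12 complex of the outer kinetochore, read 5.34 to 5.53 in weaned and 4.63 to 5.14 in suckling mice (0.58, SE 0.14). The shugoshins, which protect cohesion at centromeres, differed by 0.51 (Sgo1, SE 0.13, groups apart) and 0.50 (Sgo2a, SE 0.18, groups overlapping). The suckling mean of Sgo2a, 3.245, lies at the background level. Others had the lower mean in weaned mice. They include Knl1, the scaffold of the outer kinetochore (-0.29, SE 0.14, each weaned mouse below each suckling mouse), Zw10 (-0.27, SE 0.13), and the MIS12 complex genes Mis12 (-0.23, SE 0.15) and Nsl1 (-0.11, SE 0.18), all with an unadjusted p over 0.05. Dsn1 of that complex, like Pmf1, had the higher mean in weaned mice (0.12, SE 0.22). The groups did not overlap in 3 of the 20 partners, where 7.32% of all genes did not overlap. Nsl1 was at background in both groups.

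Of 30 measured genes of mitotic entry and exit 19 had the weaned mean above the suckling mean, and the median difference was 0.076, or -0.0066 without suckling mice 2 and 9. The spindle checkpoint kinase gene Ttk (0.35, SE 0.11) and Aurkb, the kinase of the chromosomal passenger complex (0.37, SE 0.16), were higher at an unadjusted p under 0.05, and 0 were lower. These 2 of 30 are 6.67%, beside 7.58% of all genes. The suckling mean of Ttk, 3.13, lies below the background level. With 1 mouse left out the count was 1 to 4, with 1 without weaned mouse 4 or 12 or suckling mouse 2 and 4 without weaned mouse 5, and the median ran from 0.013, without weaned mouse 12, to 0.153, without weaned mouse 5. Of 24 kinesin and dynein partners 2, or 8.33%, reached that p, beside 7.58% of all genes, the kinesin light chain gene Klc3 (0.42, SE 0.17) and the dynein light intermediate chain gene Dync1li1 (0.31, SE 0.13). In that list 14 weaned means lay above the suckling mean, with a median difference of 0.058, or -0.024 without suckling mice 2 and 9. None of the 24 reached that p without suckling mouse 2, 9 or 11, and 1 did without weaned mouse 12. In the dynein chain genes Dync1h1 (-0.24, SE 0.12) and Dync1li2 (-0.16, SE 0.10), named after their values were seen, each weaned mouse lay below each suckling mouse at an unadjusted p over 0.05. In Dync1li1 each weaned mouse lay above each suckling mouse. The groups thus did not overlap in 3 of the 24, where 7.32% of all genes did not overlap. None of the 3 lists held a gene past the adjusted threshold, and the lowest adjusted p in them was 0.430 by limma.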

How the data were processed

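The values are intensities that the authors deposited, 1 per probe set and array, made with RMA and Partek 6.6, which the submitters' processing notes name without order or settings. How the arrays were scaled and the genome build are not given in the sources used here. The range of 1.45 to 12755 is linear, so log2 was taken. Array medians were 14.1 to 14.9 and 0 sample columns were left out. The number of arrays limits the precision, with a median SE of 0.14 log2 units per gene over all genes.

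Of 35556 probe sets, 21789 carry 1 gene symbol, 1621 several and 12146 none in the platform annotation, which gave 19938 genes. 6 of the 61 genes have more than 1 probe set. Groups were compared with limma 3.58.1 in R 4.3.3 (lmFit, eBayes), two-sided, over all genes, with no covariate, and the fit was tested on simulated data. Each mouse is 1 biological repetition, per the labels' protocols. The gene classes, lists and alternatives were chosen with earlier results of these data known. Genes were named by rule: up to 12 with the smallest unadjusted p under 0.05, the 3 brightest of each class, 9 fixed genes, and up to 4 of each partner list. Other genes named for a subcomplex or partner were chosen after their values were seen. Alternative fits used quantile normalization, a robust prior that follows intensity, arrays centred on their medians, the mean of probe sets, a filter on dim genes, array weights, the acinar marker mean as a covariate, other thresholds, and mice left out, singly or suckling 2 and 9 together. Promoter windows were matched by gene ID, taking the first window listed per gene.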

Additional observations from a re-analysis of the deposited data

How the results depend on the processing

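No paired analysis was possible because the groups share only the replicate number 12. Over 15 alternatives each, 13 of 22 named genes kept their direction, and 0 passed an adjusted p of 0.05 by limma. The count of genes past that threshold was 9 with an intensity trend, 5 with quantile normalization or the mean of probe sets, 6 with arrays centred, 7 without genes under the 25th percentile of level or at an adjusted p of 0.1, 0 without suckling mice 2 and 9, and 1 to 3 without 1 mouse. The count of kinesin and centromere genes at an unadjusted p under 0.05, 8 as reported, was 4 with the acinar covariate and 5 to 9 without 1 mouse, not always of the same genes, and 4 had a p under 0.01. Over all genes the share at a p under 0.05 was 5.83% with the acinar covariate and 5.87% to 7.78% without 1 mouse. With arrays centred Kif20a differed by 0.0179 and Kif21a by 0.00254, where the median of all genes was 0.035. With array weights Kif2c differed by -0.0183. Cenpe differed by -0.0433 with the acinar covariate and -0.181 without suckling mice 2 and 9. Without 1 mouse the differences ran from -0.113 to 0.0566 for Kif20a, -0.0246 to 0.293 for Kif11, -0.17 to 0.0174 for Kif5b, -0.012 to 0.114 for Kif1b, -0.118 to 0.0581 for Kif21a, -0.00732 to 0.244 for Kif2a, -0.0308 to 0.212 for Cenpe, -0.292 to 0.00297 for Kif23 and -0.22 to 0.159 for Kif2c. Causes were not tested. Cenpk, Cenph, Cenps and Kif19a kept an unadjusted p under 0.05 in all 15 alternatives, Cenpn and Kif1a in 9, Kif3a in 7 and Cenpw in 6. Signal near the background level limits what genes such as Cenph, Cenpi, Kif2b, Kif18a, Kif14, Sgo2a, Nsl1 and Ttk can show.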
